A study of Bos taurus with 11 samples.

Results

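The genes described here are 41 genes of mitosis, the division of a cell's nucleus and body, measured as messenger RNA in the mammary gland of young cattle. They were taken by symbol from a list of known mitotic genes, and all 41 were found among the 16279 genes of the table, each on a single row. The tissue came from untreated Holstein heifers, cattle that have not yet calved, aged 10 to 12 months. Parenchyma, which contains the epithelial ducts, and far stroma were sampled in heifers 1, 3, 4 and 5 (n = 4 each). Close stroma was sampled in heifers 3, 4 and 5 (n = 3), so the 11 samples came from 4 animals, and the labels give no distance for either kind of stroma. The series compares stromal with parenchymal regions of the bovine gland by poly A selected RNA sequencing.

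A cell enters mitosis when cyclin B and its partner kinase CDK1 become active, condensin then compacts the chromosomes, the spindle captures them at their kinetochores, and the anaphase-promoting complex (APC/C) lets them separate once the spindle checkpoint is satisfied. Transcripts of most of these genes build up late in the cell cycle under the MuvB complex, B-MYB and FOXM1, and are held low in resting cells by the DREAM complex, which is why their messenger RNA is widely used as a mark of dividing cells. In the growing heifer gland, ducts extend into a pad of fat and connective tissue, and epithelial cells, immune cells, vessel cells and fibroblasts can all divide there.

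Values are the authors' normalised counts, that is read counts per gene divided by a size factor per sample, and totals of 7274474 to 11156909 reads per sample lay behind them, the lowest in the far stroma of heifer 5. The regions carried their markers (limma, described with the first comparison). Of 10 luminal epithelium genes, all 10 were higher in parenchyma than in far stroma, and so were 7 of 7 basal genes, 8 of 8 tested T and NK cell genes and 6 of 6 B and plasma cell genes, while 6 of 6 adipocyte genes were lower. Close stroma was not free of epithelium. Keratin 8 (KRT8) averaged 3335 normalised counts in parenchyma, 1938 in close stroma and 8.75 in far stroma, and 10 of 10 luminal genes were higher in close than in far stroma. The column taken as the close stroma of heifer 4 has a suffix with an extra letter that the labels do not explain. Without that sample, 31 of the 41 mitotic genes were higher in parenchyma than in far stroma, where 25.6% of all genes tested were higher. In that fit 2 were higher in parenchyma than in close stroma, beside 2.33% of all genes. Only 1 was higher in close than in far stroma, below the 6.97% of all genes.

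Mitotic genes were highest in parenchyma. Of the 41 genes, 32 were higher in parenchyma than in far stroma and 0 were lower, where 26.1% of all 14596 genes tested were higher and 24% lower. All 32 differed at least 2-fold, against 17.6% of all genes. The median log2 difference was 1.81 over the 41 genes and 0.06 over all genes tested. Differences were fitted with limma on log2(normalised count + 1) across all genes, and a gene was called at a Benjamini-Hochberg adjusted p under 0.05. This scale understates the change of low genes. In 26 of the 41 genes every parenchyma sample lay above every far stroma sample, as it did for 24% of all genes. In bulk tissue, fewer dividing cells and less of each RNA per cell cannot be told apart.

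**Figure D1:**
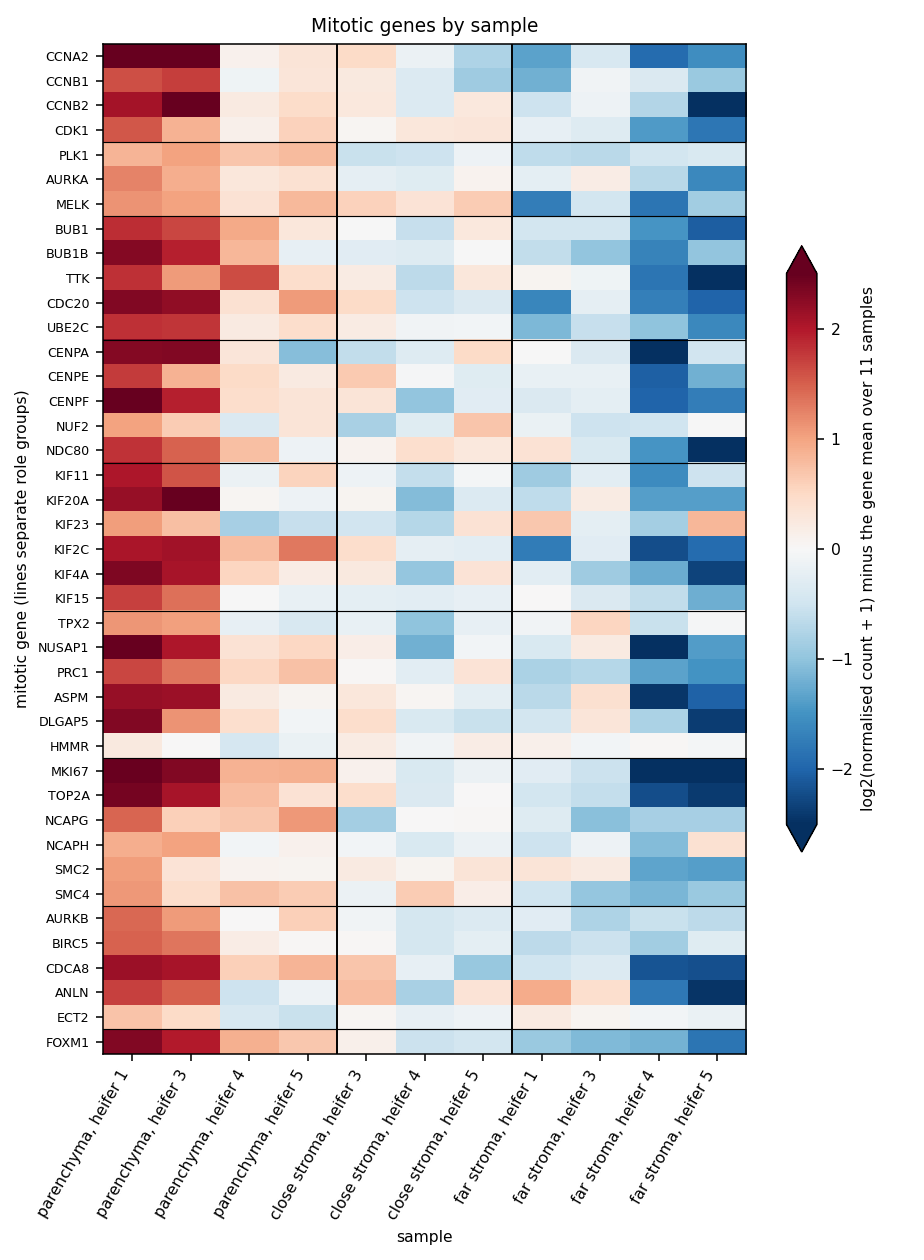
Level of each of the 41 mitotic genes (rows, grouped by role) in each of the 11 samples (columns), as log2(normalised count + 1) minus the gene's mean over all samples, red above it and blue below it. Parenchyma columns are the reddest, those of heifers 1 and 3 above those of heifers 4 and 5, and far stroma columns the bluest, while the row of HMMR is nearly flat.

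A pair of genes in common use as marks of proliferation showed the pattern at high counts. In the sentences that follow, values run over heifers 1, 3, 4 and 5 in parenchyma and far stroma, and over heifers 3, 4 and 5 in close stroma. MKI67 (ENSBTAG00000002444), which encodes the Ki-67 protein that coats mitotic chromosomes, had 800.0, 717, 265 and 266 normalised counts in parenchyma, 155, 111 and 130.4 in close stroma and 117, 98.4, 20.3 and 24.2 in far stroma. TOP2A (ENSBTAG00000019262), the topoisomerase that untangles replicated chromosomes, had 378, 300.0, 123 and 91.5 normalised counts in parenchyma, 96.8, 55.3 and 72.5 in close stroma and 51.9, 46.8, 14.7 and 12.9 in far stroma. For both genes the lowest parenchyma sample lay above the highest far stroma sample, and heifers 1 and 3 were the highest in each of parenchyma and far stroma. MKI67 averaged 512 ± 287 in parenchyma and 65.1 ± 50.1 in far stroma (mean ± SD over 4 samples each). The log2 difference was 3.17 ± 0.56 (SE), with a limma adjusted p of 0.000523. For TOP2A the means were 223 ± 138 in parenchyma and 31.6 ± 20.6 in far stroma (log2 difference 2.80 ± 0.53 SE, limma adjusted p = 0.000853). Both were higher in parenchyma in 4 of 4 heifers.

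All 4 genes of the kinase that starts mitosis rose in parenchyma against far stroma. CCNA2 (ENSBTAG00000004943), cyclin A2, which acts from S phase into early mitosis, had 81.4, 69.1, 12.5 and 14.7 normalised counts in parenchyma, 16.3, 10.3 and 6.34 in close stroma and 3.91, 8.40, 2.26 and 3.23 in far stroma. CDK1 (ENSBTAG00000010109), the kinase itself, had 42.2, 26.0, 15.2 and 21.1 normalised counts in parenchyma, 14.4, 16.9 and 17.2 in close stroma and 11.7, 10.8, 4.51 and 3.23 in far stroma. Parenchyma lay above far stroma without overlap in both. CCNB1 (ENSBTAG00000014239), cyclin B1, had 60.3, 65.9, 17.8 and 23.8 normalised counts in parenchyma, 23.0, 15.0 and 9.96 in close stroma and 7.83, 18.0, 14.7 and 9.68 in far stroma, so its lowest parenchyma sample, of heifer 4, lay just below the far stroma of heifer 3. The log2 differences from far stroma were 2.73 ± 0.63 for CCNA2, 2.68 ± 0.80 for the related cyclin CCNB2, 1.72 ± 0.44 for CDK1 and 1.52 ± 0.47 for CCNB1, with limma adjusted p of 0.00316, 0.0138, 0.00617 and 0.0169. CCNB2 was at 0 reads in the far stroma of heifer 5. CCNB1 did not pass without the parenchyma of heifer 1 or of heifer 3, nor with heifers 3, 4 and 5 only.

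All 3 mitotic kinases rose in parenchyma against far stroma. PLK1 (ENSBTAG00000014453), polo-like kinase 1, which acts from mitotic entry to cytokinesis, had 182, 204, 162 and 175 normalised counts in parenchyma, 68.1, 70.3 and 91.5 in close stroma and 64.6, 62.4, 73.4 and 77.4 in far stroma. Its parenchyma samples lay within a narrow range and far above both kinds of stroma, which overlapped each other (log2 difference 1.37 ± 0.19 SE, limma adjusted p = 6.52e-05 against far stroma). PLK1 had the smallest p of the 41 genes against far stroma. AURKA (ENSBTAG00000013009), aurora kinase A of the spindle poles, had 75.4, 60.2, 38.3 and 41.2 normalised counts in parenchyma, 26.8, 25.3 and 33.5 in close stroma and 26.4, 36.0, 19.2 and 9.68 in far stroma. Its parenchyma values stayed above the rest, by less in heifers 4 and 5 (log2 difference 1.29 ± 0.38 SE, limma adjusted p = 0.0139). MELK (ENSBTAG00000021686), a kinase whose transcript peaks in mitosis, had 41.5, 38.2, 24.1 and 33.0 normalised counts in parenchyma, 27.8, 23.4 and 29.0 in close stroma and 4.89, 13.2, 4.51 and 9.68 in far stroma, with close stroma overlapping parenchyma and far stroma below both (log2 difference 2.04 ± 0.37 SE, limma adjusted p = 0.000556).

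The checkpoint and anaphase genes rose in parenchyma in all 5 cases, each without overlap with far stroma. CDC20 (ENSBTAG00000009819), the activator through which the APC/C starts anaphase, had 179, 167, 46.4 and 75.1 normalised counts in parenchyma, 49.9, 24.4 and 27.2 in close stroma and 10.8, 30.01, 10.2 and 8.06 in far stroma. TTK (ENSBTAG00000005456), the checkpoint kinase also called MPS1, had 25.6, 14.6, 22.3 and 9.16 normalised counts in parenchyma, 7.67, 3.75 and 8.15 in close stroma and 6.85, 6.0, 1.13 and 0 in far stroma, on 7, 5, 1 and 0 reads in far stroma. CDC20 was the member of this role with the smallest p (log2 difference 2.88 ± 0.50 SE, limma adjusted p = 0.000417) and TTK that with the largest (log2 difference 2.43 ± 0.65 SE, limma adjusted p = 0.008). BUB1 and BUB1B, related proteins of the checkpoint, differed from far stroma by 2.29 ± 0.45 and 2.28 ± 0.49 on the log2 scale. UBE2C, the ubiquitin-conjugating enzyme of the APC/C, differed by 2.15 ± 0.39. BUB1B was at 17.4 in the parenchyma of heifer 5, below its highest close stroma value of 19.9.

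Kinetochore and centromere genes passed in 3 of 5 cases. CENPF (ENSBTAG00000024449), a large outer kinetochore protein, had 212, 136, 47.2 and 43.0 normalised counts in parenchyma, 43.1, 16.9 and 28.1 in close stroma and 26.4, 28.8, 7.90 and 9.68 in far stroma. NUF2 (ENSBTAG00000007247), a subunit of the NDC80 complex that binds microtubules, had 43.0, 33.3, 16.1 and 26.6 normalised counts in parenchyma, 11.5, 16.9 and 34.4 in close stroma and 18.6, 14.4, 14.7 and 21.0 in far stroma. CENPA (ENSBTAG00000023938), the histone variant that marks centromeres, had 27.9, 28.5, 6.24 and 1.83 normalised counts in parenchyma, 2.88, 3.75 and 7.25 in close stroma and 4.89, 3.60, 0 and 3.23 in far stroma. CENPF rose (log2 difference 2.41 ± 0.57 SE, limma adjusted p = 0.00383), whereas NUF2 (log2 difference 0.69 ± 0.39 SE, limma adjusted p = 0.162) and CENPA (log2 difference 1.81 ± 0.80 SE, limma adjusted p = 0.0767) did not pass, and the regions overlapped in both. CENPA rested on few reads, with 7 and 2 in the parenchyma of heifers 4 and 5. It passed by edgeR and DESeq2 on the recovered reads, with library-total scaling and without the parenchyma of heifer 5, and NUF2 passed with each library scaled to its total. NDC80, the partner of NUF2, and the motor protein CENPE rose by 2.15 ± 0.69 and 1.74 ± 0.50 on the log2 scale. NDC80 did not pass without the parenchyma of heifer 1 or of heifer 3.

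Of the 6 kinesins, motor proteins that move along microtubules, 5 rose. KIF2C (ENSBTAG00000015280), which takes microtubules apart at kinetochores, had 40.0, 41.5, 16.1 and 23.8 normalised counts in parenchyma, 12.5, 7.50 and 7.25 in close stroma and 1.96, 7.20, 1.13 and 1.61 in far stroma, and far stroma held only 2, 6, 1 and 1 reads. KIF23 (ENSBTAG00000009983), the motor of the central spindle that is needed for cytokinesis, had 103, 84.6, 27.6 and 33.0 normalised counts in parenchyma, 35.5, 30 and 64.3 in close stroma and 79.3, 42.0, 27.1 and 88.7 in far stroma. For KIF23 the parenchyma of heifer 1 was the highest sample and the far stroma of heifer 5 the next, and far stroma of heifers 1, 3 and 5 lay above the parenchyma of heifers 4 and 5. KIF2C rose (log2 difference 3.10 ± 0.50 SE, limma adjusted p = 0.000238) and KIF23 did not pass (log2 difference -0.001 ± 0.49 SE, limma adjusted p = 0.999). KIF4A, which acts on chromosome arms and the midzone, KIF11, which pushes spindle poles apart, and KIF20A, a midzone motor, rose by 2.46 ± 0.59, 1.81 ± 0.47 and 1.95 ± 0.61. KIF15, which backs up KIF11, rose by 1.27 ± 0.47 (limma adjusted p = 0.0402) and lost its call in 9 of the 21 alternatives that tested it. KIF20A did not pass without the parenchyma of heifer 1 or of heifer 3.

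Spindle assembly genes passed in 4 of 6 cases. PRC1 (ENSBTAG00000018643), which bundles the antiparallel microtubules of the midzone, had 269, 212, 119 and 139 normalised counts in parenchyma, 85.3, 69.4 and 106 in close stroma and 48.0, 50.4, 32.7 and 29.0 in far stroma. HMMR (ENSBTAG00000014773), a hyaluronan receptor that also binds spindle microtubules, had 77.7, 65.9, 48.1 and 57.7 normalised counts in parenchyma, 74.8, 60.9 and 74.3 in close stroma and 71.5, 62.4, 66.6 and 62.9 in far stroma. TPX2 (ENSBTAG00000018775), which activates AURKA on the spindle, had 229, 215, 91.8 and 79.7 normalised counts in parenchyma, 93.0, 52.5 and 91.5 in close stroma and 99.8, 155, 71.1 and 103 in far stroma. PRC1 stepped down from region to region without any overlap of parenchyma with either stroma (log2 difference 2.14 ± 0.30 SE, limma adjusted p = 7.56e-05 against far stroma). HMMR lay between 48.1 and 77.7 in all 11 samples (log2 difference -0.10 ± 0.21 SE, limma adjusted p = 0.731). TPX2 was high in the parenchyma of heifers 1 and 3 and lowest in the close stroma of heifer 4 (log2 difference 0.41 ± 0.38 SE, limma adjusted p = 0.381). NUSAP1, which binds microtubules near chromosomes, ASPM, a spindle pole protein, and DLGAP5, which stabilises kinetochore fibres, rose by 2.48 ± 0.69, 2.34 ± 0.65 and 1.78 ± 0.62. DLGAP5 did not pass without the parenchyma of heifer 1 or 3 or the far stroma of heifer 4 or 5.

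Condensin, the ring complex that compacts chromosomes, rose in part. SMC4 (ENSBTAG00000005862), a core subunit, had 389.8, 249.6, 306 and 287 normalised counts in parenchyma, 167, 286 and 207 in close stroma and 130.2, 93.6, 82.4 and 96.8 in far stroma. SMC2 (ENSBTAG00000008772), its partner in the ring, had 159.8, 98.4, 82.0 and 81.5 normalised counts in parenchyma, 91.1, 81.6 and 96.9 in close stroma and 96.9, 90.0, 30.5 and 29.0 in far stroma. NCAPH (ENSBTAG00000012925), the subunit that closes the ring, had 107, 115, 53.5 and 61.3 normalised counts in parenchyma, 53.7, 43.1 and 50.7 in close stroma and 39.1, 51.6, 26.0 and 74.2 in far stroma. SMC4 rose (log2 difference 1.60 ± 0.22 SE, limma adjusted p = 6.95e-05), and so did NCAPG, a regulatory subunit, at 1.71 ± 0.30, while SMC2 (log2 difference 0.93 ± 0.40 SE, limma adjusted p = 0.0707) and NCAPH (log2 difference 0.83 ± 0.35 SE, limma adjusted p = 0.0632) did not pass. Far stroma of heifers 1 and 3 held more SMC2 than the parenchyma of heifers 4 and 5, and far stroma of heifer 5 more NCAPH than the parenchyma of heifers 4 and 5. With the heifer as a block both passed, at adjusted p of 0.0203 for SMC2 and 0.0419 for NCAPH. The difference of either from SMC4 was not tested.

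Genes of the chromosomal passenger complex rose and the remaining cytokinesis genes did not pass. CDCA8 (ENSBTAG00000014326), borealin of the passenger complex, had 85.2, 80.5, 28.5 and 33.9 normalised counts in parenchyma, 30.7, 15.9 and 9.06 in close stroma and 12.7, 14.4, 3.39 and 3.23 in far stroma. BIRC5 (ENSBTAG00000013573), survivin of the same complex, had 119, 109, 48.1 and 43.0 normalised counts in parenchyma, 43.1, 30.9 and 35.3 in close stroma and 26.4, 28.8, 22.6 and 33.9 in far stroma. ECT2 (ENSBTAG00000023814), the exchange factor that activates RhoA at the cleavage furrow, had 72.4, 61.0, 33.0 and 29.3 normalised counts in parenchyma, 45.1, 37.5 and 39.9 in close stroma and 50.9, 45.6, 41.8 and 38.7 in far stroma. CDCA8 (log2 difference 2.71 ± 0.57 SE, limma adjusted p = 0.00165) and BIRC5 (log2 difference 1.35 ± 0.35 SE, limma adjusted p = 0.00619) separated parenchyma from far stroma completely. The passenger kinase AURKB did too, at 1.35 ± 0.32. ECT2 overlapped in all 3 regions (log2 difference 0.05 ± 0.30 SE, limma adjusted p = 0.912). ANLN (ENSBTAG00000009218), the scaffold protein anillin of the contractile ring, had 74.7, 64.2, 15.2 and 20.1 normalised counts in parenchyma, 38.4, 12.2 and 28.1 in close stroma and 43.1, 30.01, 5.64 and 3.23 in far stroma. In both parenchyma and far stroma its values in heifers 1 and 3 lay far above those in heifers 4 and 5, and it did not pass (log2 difference 1.36 ± 0.77 SE, limma adjusted p = 0.158), but did with the heifer as a block (adjusted p = 0.0159).

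FOXM1 (ENSBTAG00000015875), the forkhead factor that drives transcription of many of these genes, had 73.9, 58.5, 26.7 and 22.9 normalised counts in parenchyma, 15.3, 9.38 and 9.96 in close stroma and 6.85, 6.0, 5.64 and 3.23 in far stroma. Its parenchyma samples lay above all stroma samples, and close stroma above far stroma (log2 difference 2.73 ± 0.43 SE, limma adjusted p = 0.000206 against far stroma). Over the 41 genes, the 9 that did not pass against far stroma were thus CENPA, NUF2, KIF23, TPX2, HMMR, NCAPH, SMC2, ANLN and ECT2. Of these, KIF23, TPX2, HMMR and ECT2 passed in none of the 22 alternatives, and the other 5 in at least 1. In the other direction, 27 of the 32 called genes kept their call in every alternative that tested them. The 5 that lost it in some were CCNB1, NDC80, KIF20A, KIF15 and DLGAP5.

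**Figure D2:**
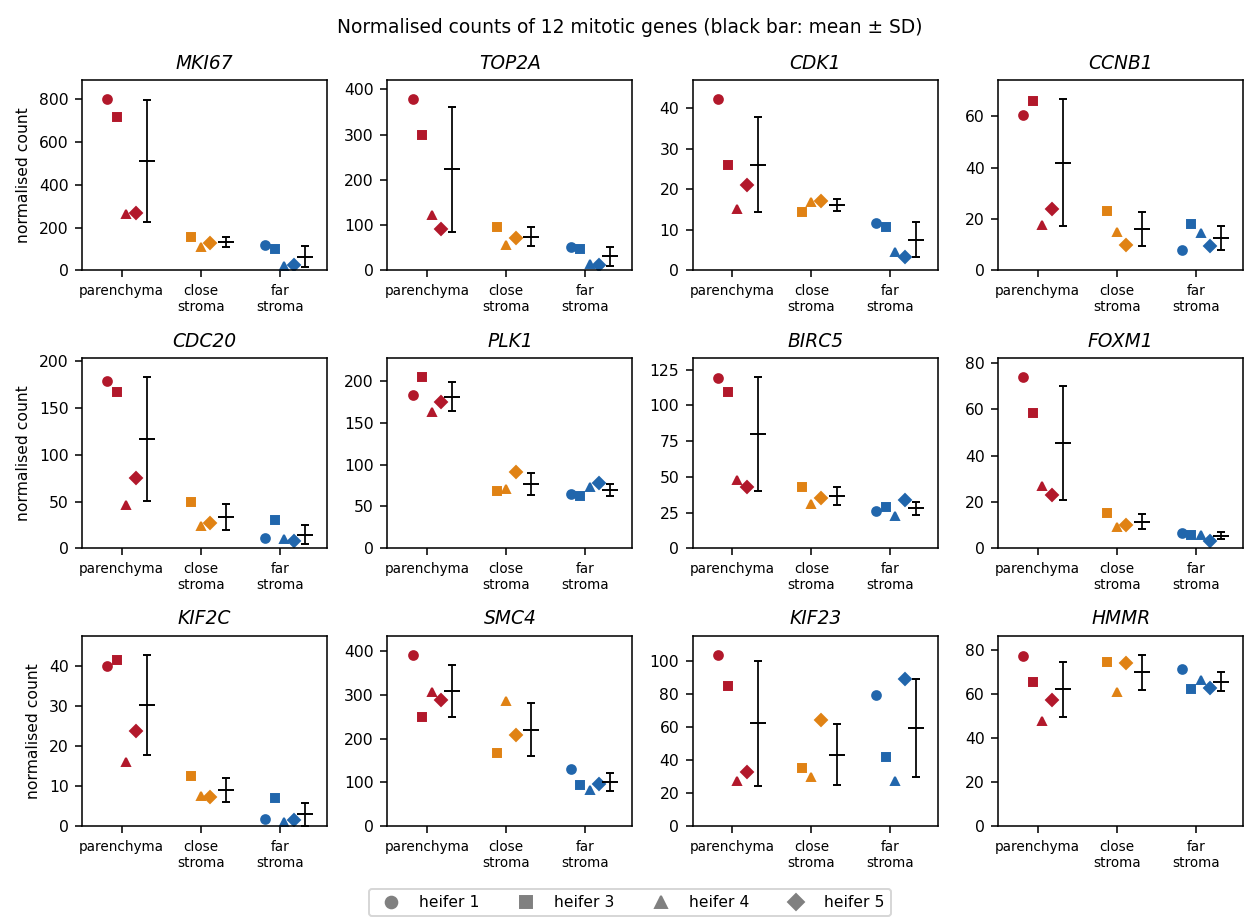
Normalised counts of 12 mitotic genes in each sample, by region, with 1 symbol per heifer and black bars for mean ± SD (n = 4 in parenchyma and far stroma, n = 3 in close stroma). Each vertical axis starts at 0. PLK1 was tightly grouped within regions, MKI67 ran from 265 to 800.0 within parenchyma, and KIF23 and HMMR overlapped between regions.

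Close stroma lay between the other regions. The region means ran in the order parenchyma, close stroma, far stroma from the highest in 37 of the 41 genes and in 34.7% of all genes tested. The exceptions were KIF23, TPX2, HMMR and ECT2. Parenchyma was above close stroma by a median log2 difference of 1.12 over the 41 genes, against 0.04 over all genes, with 40 of 41 differences positive. Only 3 of 41 passed, PLK1 (log2 difference 1.24 ± 0.20 SE, limma adjusted p = 0.00303), NCAPG (log2 difference 1.22 ± 0.33 SE, limma adjusted p = 0.0422) and FOXM1 (log2 difference 1.75 ± 0.46 SE, limma adjusted p = 0.0387). Of all genes, 2.02% were higher and 5.1% lower in parenchyma in this comparison, and 0 mitotic genes were lower. All 3 differed at least 2-fold, as did 1.14% of all genes. In 13 genes every parenchyma sample lay above every close stroma sample, where 12.8% of all genes did so. At an unadjusted p under 0.05, 21 were higher and 0 lower by limma, where 23.7% of all genes differed in either direction. Heifer 1 had no close stroma, and its parenchyma was the highest in 34 of 41 genes. The region means and this comparison thus set 4 heifers in parenchyma against 3 in close stroma. Within heifers 3, 4 and 5 the median log2 differences were 1.46, 0.58 and 0.29. With the heifer as a block the log2 difference went from 1.77 to 1.42 for MKI67 and from 1.24 to 1.25 for PLK1.

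The count against close stroma depended on the fit. It was 8 with the heifer as a block, which added CDC20, CENPF, MKI67, TOP2A and CDCA8, where 3.4% of all genes were higher. It was 5 with only these regions in the fit (4.33% of all genes) and 18 by DESeq2 (5.8%), while edgeR with TMM gave 3 (2.21%). Only PLK1 kept its call in every alternative. A single gene was called without the parenchyma of heifer 1 or of heifer 3, or without the close stroma of heifer 3 or of heifer 5. In those fits 0.362% to 1.14% of all genes were higher. MKI67 averaged 512 ± 287 in parenchyma and 132 ± 22.4 in close stroma (log2 difference 1.77 ± 0.61 SE, limma adjusted p = 0.0997, and 0.0227 with the block).

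Close stroma against far stroma likewise gave 3 called genes of 41, a smaller share than the 11% of all genes that were higher there, so that this count, from the fit without a heifer term, does not set the mitotic genes apart. They were SMC4 (log2 difference 1.10 ± 0.24 SE, limma adjusted p = 0.00679), MELK (log2 difference 1.72 ± 0.40 SE, limma adjusted p = 0.01) and PRC1 (log2 difference 1.12 ± 0.32 SE, limma adjusted p = 0.0316). All 3 were at least 2-fold higher, as were 9.56% of all genes. The median log2 difference was 0.82 over the 41 genes and 0.002 over all genes, 38 of 41 were positive, and 0 were called lower, against 5.99% of all genes. Every close stroma sample lay above every far stroma sample in 9 genes (14.2% of all genes). By limma, 9 were higher and 0 lower at an unadjusted p under 0.05, where 32.3% of all genes differed in either direction. With the heifer as a block the reading turned: 13 of 41 passed, a larger share than the 12.5% of all genes higher in that fit, among them MKI67 (adjusted p = 0.00498) and TOP2A (0.00242). With heifers 3, 4 and 5 only and the block it was 8, where 13.1% of all genes were higher. With library-total scaling it was 6, below the 19.1% of all genes. It was 1 without the close stroma of heifer 4 or of heifer 5, below the 6.97% and 7.41% of all genes. Without the far stroma of heifer 3 it was 5, where 10.8% of all genes were higher.

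**Figure D3:**
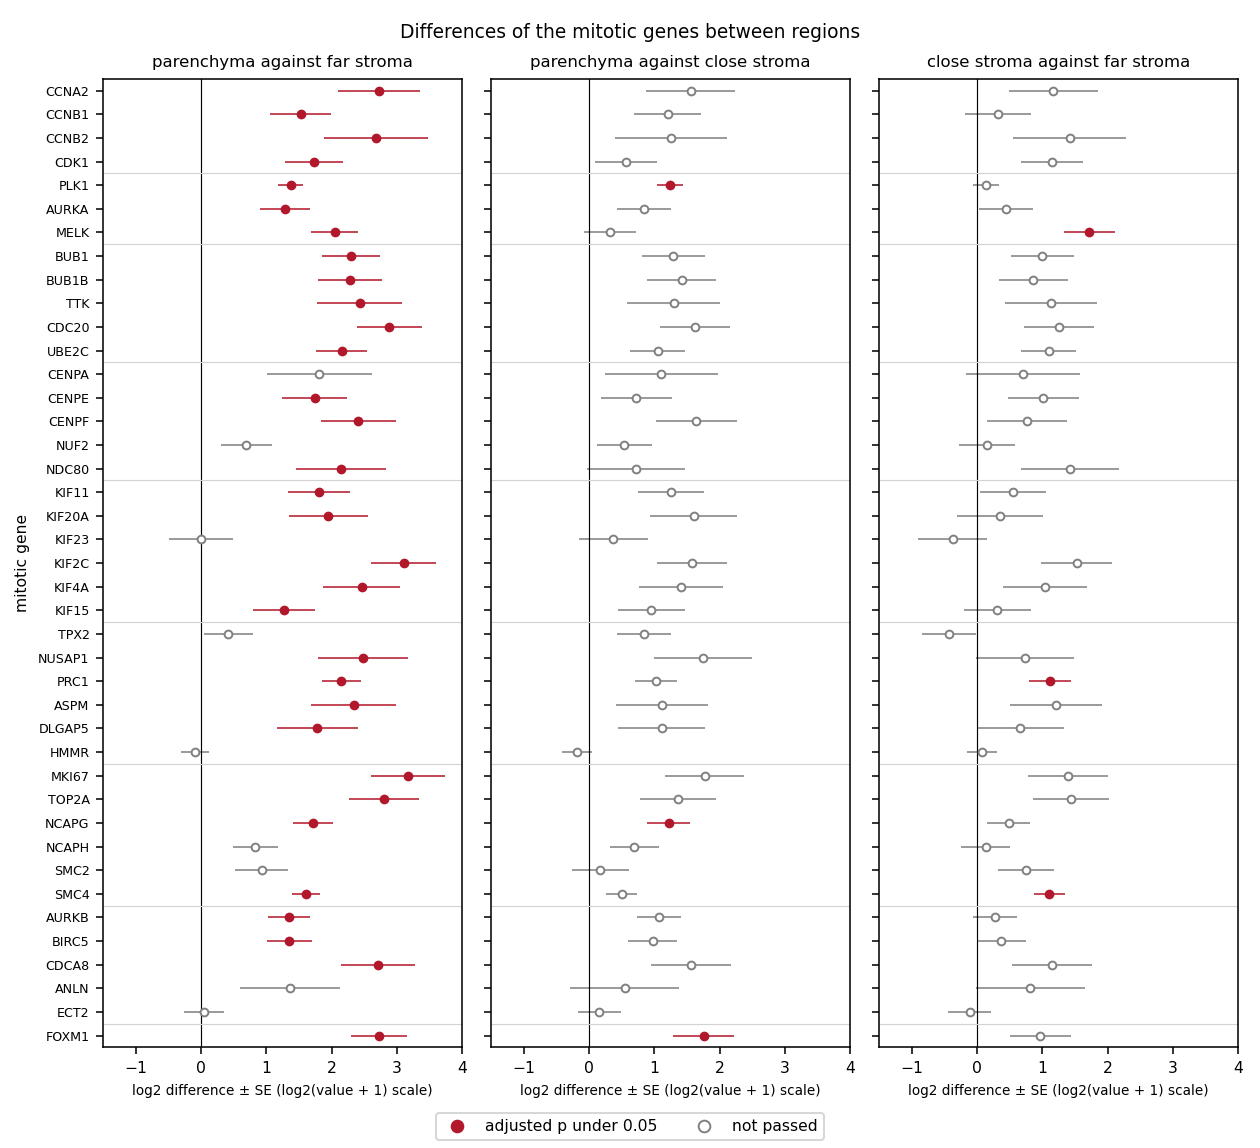
Log2 difference ± SE of each mitotic gene (rows) in 3 comparisons of regions, from limma on log2(normalised count + 1), filled red where the adjusted p was under 0.05. Most points lie right of 0 in all 3 panels, with 32, 3 and 3 genes called from left to right.

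The sizes of the pair of steps, parenchyma minus close stroma and close minus far stroma, were set against each other in the same fit. For 0 of 41 mitotic genes did they differ at an adjusted p under 0.05 by limma, edgeR or DESeq2. At an unadjusted p under 0.05, edgeR and DESeq2 gave 1 each and limma gave 1, PLK1, whose upper step was larger (1.24 ± 0.20 against 0.13 ± 0.20, difference 1.10 ± 0.35, adjusted p = 0.235). Of all genes, 8.96% differed at that unadjusted level by limma, in either direction. Over all genes the difference was positive and called in 0.0411% and negative and called in 1.61%. In the same contrast all 10 luminal epithelium genes were called negative, their median being 0.69 for parenchyma minus close stroma and 7.54 for close minus far stroma, and so were 6 of 6 adipocyte genes. The median of this contrast was 0.39 over the mitotic genes, -6.80 over the luminal genes and -1.84 over the T and NK cell genes, of which 0 of 8 were called. Heifer 1 had no close stroma, so this fit did not rest on the same heifers in each region. With the heifer as a block the contrast went from 0.391 to -0.035 for CCNA2 and from 0.375 to -0.316 for MKI67. It stayed positive for PLK1 (1.10 and 1.13). The sign for single mitotic genes thus depended on the fit, and 0 of 41 were called with the block.

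**Figure D4:**
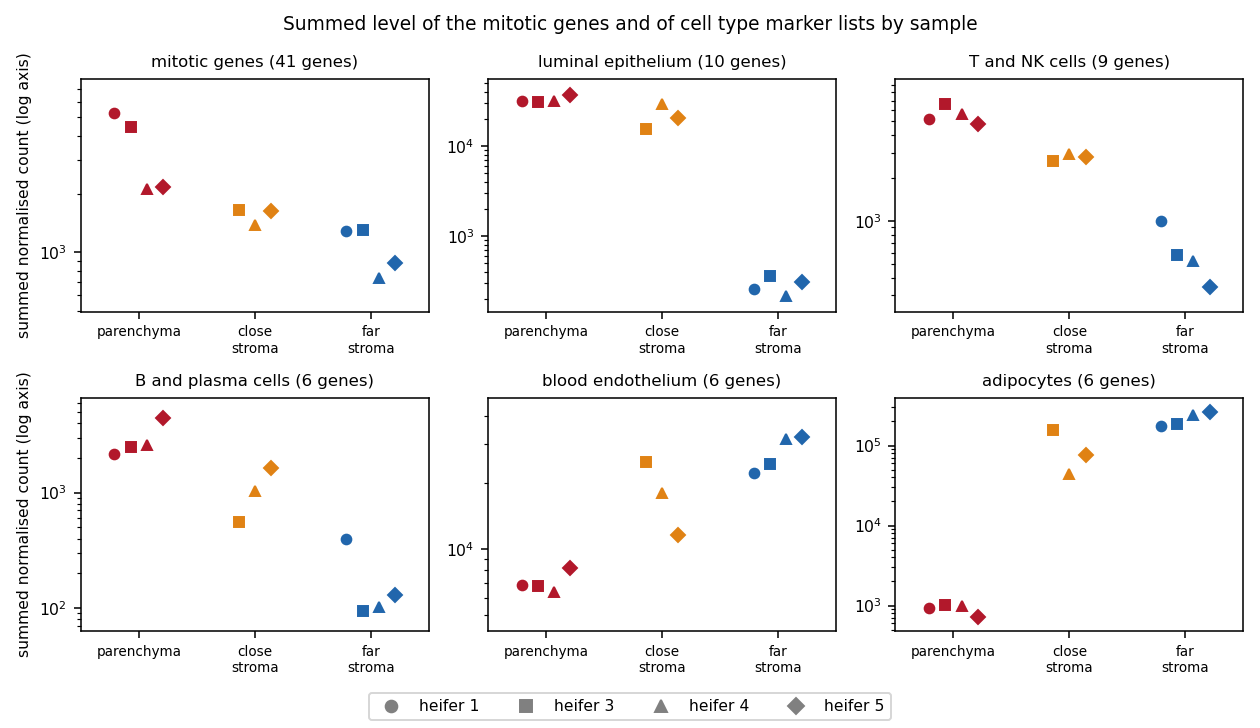
Summed normalised counts of the 41 mitotic genes and of 5 lists of cell type markers in each sample by region, with 1 symbol per heifer, on log axes. The sum of the mitotic genes lay at 2129 to 5259 in parenchyma, 1387 to 1661 in close stroma and 739.2 to 1312 in far stroma, while luminal genes were high in parenchyma and close stroma and low in far stroma.

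The animals differed as well as the regions. In parenchyma, heifers 1 and 3 both lay above heifers 4 and 5 in 38 of 41 mitotic genes, where 18.3% of all genes showed that order, and the exceptions were TTK, NCAPG and SMC4. In far stroma the same order held in 26 of 41 genes, against 29% of all genes. In close stroma, where heifer 1 was not sampled, heifer 3 was the highest in 23 of 41 genes, against 39.2% of all genes. Relative to its mean in parenchyma, the median mitotic gene stood at 150.0% in heifer 1, 128.6% in heifer 3, 54.8% in heifer 4 and 53.9% in heifer 5. In far stroma these medians were 126.0%, 143.5%, 59.9% and 59.5%. The median over all genes lay between 97.2% and 100.5% in every sample. These orders were seen in the data and are given without a test.

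**Figure D5:**
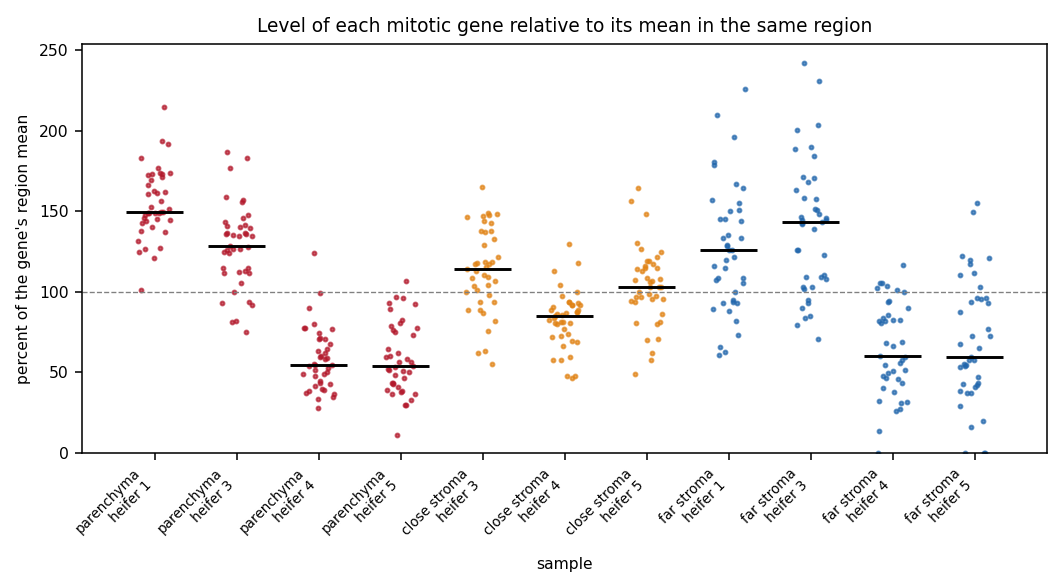
Each dot is a mitotic gene, placed at its normalised count as a percent of its own mean over the samples of the same region (dashed line at 100%), and black bars are medians over the 41 genes. Medians in heifers 1 and 3 lie at 126.0% to 150.0% in parenchyma and far stroma, and those in heifers 4 and 5 at 53.9% to 59.9%.

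The sums of epithelial and lymphoid markers did not show the same order in parenchyma. The summed mitotic genes came to 5259, 4431, 2129 and 2167 normalised counts in the parenchyma of heifers 1, 3, 4 and 5. Luminal genes summed to 31889, 30530, 31339 and 37214 there, T and NK cell genes to 5204, 6635, 5660 and 4785, and B and plasma cell genes to 2154, 2501, 2610.0 and 4404. Thus none of these 3 lists had both heifers 1 and 3 above both heifers 4 and 5. Singly, 0 of 10 luminal genes, 3 of 7 basal and myoepithelial genes (KRT14, TP63 and OXTR), 3 of 8 T and NK cell genes and 0 of 6 B and plasma cell genes had that order in parenchyma, against 18.3% of all genes. In far stroma the T and NK cell genes did follow it: they summed to 997.3, 573.7, 524.8 and 345.2 in heifers 1, 3, 4 and 5, and 6 of 8 had the order singly, against 29% of all genes. There 2 of 6 B and plasma cell genes, 1 of 10 luminal genes and 0 of 7 basal genes had it. Fibroblast genes also followed the order in far stroma, with sums of 380795, 460623, 315759 and 206874 and 5 of 7 genes singly, against 0 of 7 in parenchyma. Of the other lists in far stroma, 2 of 7 macrophage and myeloid genes, 1 of 6 endothelial genes and 2 of 6 adipocyte genes had it. Beta-casein (CSN2), a milk protein, stood at 99143, 5476, 125.7 and 108.9 in parenchyma, 5598, 96.6 and 60926 in close stroma and 349.4, 21.6, 36.1 and 96.8 in far stroma. In parenchyma CSN2 thus had heifers 1 and 3 above heifers 4 and 5, as most of the mitotic genes and 18.3% of all genes did. It is a single gene that belongs to none of the lists. In close stroma it was highest in heifer 5, where the median mitotic gene stood at 103.2% of its close stroma mean, against 114.2% in heifer 3 and 84.8% in heifer 4. The part of epithelial, lymphoid, fibroblast or secretory content in the differences between heifers was not tested.

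Most mitotic genes were higher in parenchyma than in far stroma in each animal. Parenchyma lay above far stroma in 41 of 41 genes in heifer 1, 41 in heifer 3, 39 in heifer 4 and 35 in heifer 5, with median log2 differences of 2.30, 1.82, 1.55 and 1.91. Over all genes 51.3% to 53.1% were higher in these pairs. Parenchyma lay above close stroma in 40, 36 and 30 genes in heifers 3, 4 and 5, with medians of 1.46, 0.58 and 0.29. At most 53.4% of all genes were higher in parenchyma in these pairs. Close stroma lay above far stroma in 32, 37 and 38 genes of the same heifers, with medians of 0.38, 0.99 and 1.32. Between 47.8% and 50.4% of all genes were higher in close stroma in those pairs. This is a description of 1 sample per region and animal.

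Across regions, T and NK cell and B and plasma cell genes had the same order of regions as the mitotic genes. The T and NK cell list of 9 genes summed to 4785 to 6635 in parenchyma, 2628 to 2958 in close stroma and 345.2 to 997.3 in far stroma, and all 8 tested members were higher in parenchyma than in far stroma. CD3E, a signalling chain of the T cell receptor, and CD2, an adhesion receptor of T cells, differed by 4.03 ± 0.35 and 3.93 ± 0.28 on the log2 scale. The B and plasma cell list of 6 summed to 2154 to 4404 in parenchyma, 556.1 to 1625 in close stroma and 94.8 to 392.5 in far stroma, with log2 differences of 4.84 ± 0.36 for CD79A of the B cell receptor and 4.34 ± 0.49 for the immunoglobulin chain JCHAIN. Luminal genes summed to 30530.4 to 37214, 15476 to 29291 and 215.6 to 355.3 in the same order of regions, and ELF5 and FOXA1 were at 0 in at least 1 far stroma sample each. KRT8 and the adhesion protein gene EPCAM differed by 8.60 ± 0.35 and 4.51 ± 0.35. Basal and myoepithelial genes summed to 19589 to 26652, 6520.4 to 20125 and 1366 to 2977, keratins KRT5 and KRT14 differed by 9.07 ± 0.32 and 8.45 ± 0.39, and TP63 was at 0 in all 4 far stroma samples. The part of each of these cell types in the mitotic differences was not tested.

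Blood endothelium and adipocyte genes ran the other way. The 6 endothelial genes summed to 6343 to 8175 in parenchyma, 11549 to 24716 in close stroma and 22098 to 32311 in far stroma, and the junction genes PECAM1 and CDH5 differed by -1.79 ± 0.20 and -1.61 ± 0.22. The 6 adipocyte genes summed to 722.3 to 1030.1 in parenchyma, 43871 to 155166 in close stroma and 176758 to 261489 in far stroma, and ADIPOQ, the hormone adiponectin, and PLIN1, a lipid droplet protein, differed by -7.62 ± 0.33 and -8.09 ± 0.32. Of 7 fibroblast genes 5 were lower in parenchyma than in far stroma and 2 did not pass, with differences of -1.68 ± 0.22 for decorin (DCN) and -0.15 ± 0.22 for PDGFRA. Of 7 macrophage and myeloid genes 1 was higher, 2 were lower and 4 did not pass, with -0.10 ± 0.36 for the receptor CSF1R and -0.47 ± 0.32 for CD68.

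Mitotic genes outside the 41 were called higher in parenchyma more often than lower. Of 73 listed, 71 were in the table and 64 were tested. Between parenchyma and far stroma 29 were higher, 4 lower and 31 did not pass, with a median log2 difference of 0.82 over the list. That is 45.3% higher and 6.25% lower, beside 26.1% and 24% of all genes. The smallest p among the higher ones had PSRC1, a spindle protein (2.84 ± 0.22), NCAPD2 of condensin (1.12 ± 0.15), TROAP (2.95 ± 0.46) and ESPL1, separase, which cuts cohesin at anaphase (2.22 ± 0.39). ESPL1 averaged 81.0 in parenchyma, 23.4 in close stroma and 16.2 in far stroma. Lower in parenchyma were CENPU (-1.11 ± 0.25) and SKA1 (-1.16 ± 0.31) of the kinetochore, SKA2 (-0.59 ± 0.22), and CKS1B, which binds cyclin-dependent kinases (-0.68 ± 0.20). SKA1 averaged 27.4 in parenchyma, 38.0 in close stroma and 61.8 in far stroma. With library-total scaling 40 were higher and 1 lower, beside 43.3% and 14.4% of all genes. Against close stroma TROAP, NCAPD2, ESPL1 and PSRC1 were higher in parenchyma and 0 were lower, which is 6.25% higher beside 2.02% of all genes. By DESeq2 13 were higher, beside 5.8% of all genes in that fit. In close against far stroma PSRC1 and CDCA5 were higher, which at 3.12% of the list is below the 11% of all genes.

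Genes of G1/S and DNA synthesis, which act before mitosis, followed the same direction in 12 cases. Of 33 tested, 12 were higher in parenchyma than in far stroma, 3 lower and 18 did not pass (median log2 difference 0.37), which is 36.4% higher and 9.09% lower, beside 26.1% and 24% of all genes. CDC25A, the phosphatase that switches on cyclin-dependent kinases (2.33 ± 0.25), GINS2 of the replicative helicase (2.40 ± 0.28), cyclin D1 (CCND1, 1.74 ± 0.30) and the licensing factor CDT1 (1.59 ± 0.29) had the smallest p. CCND1 averaged 425 in parenchyma, 179.9 in close stroma and 132 in far stroma. RFC3 of the clamp loader (-0.67 ± 0.21), DTL, which targets CDT1 for destruction (-1.42 ± 0.44), and thymidine kinase (TK1, -0.71 ± 0.24) were lower. With library-total scaling 22 were higher and 0 lower, where 43.3% of all genes were higher. CDC25A, GINS2 and CCND1 were higher in parenchyma than in close stroma, 9.09% of the list beside 2.02% of all genes. In close against far stroma CDC25A and GINS2 were higher, which at 6.06% of the list is below the 11% of all genes.

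Inhibitors of the cell cycle were lower in 6 cases and higher in 2 in parenchyma. Of 14 tested, 6 were lower than in far stroma, 2 higher and 6 did not pass, which is 42.9% lower and 14.3% higher, beside 24% and 26.1% of all genes. CDKN1A, the inhibitor p21, averaged 163 in parenchyma, 1086 in close stroma and 2154 in far stroma (log2 difference -3.60 ± 0.32 SE, limma adjusted p = 2.31e-06), and the p57 gene CDKN1C averaged 1074 in parenchyma, 2696 in close stroma and 4455 in far stroma (-2.04 ± 0.33). CDKN2C, the inhibitor p18 (-1.88 ± 0.25), and the stress gene GADD45A (-1.66 ± 0.26) were also lower. The antiproliferative gene TOB1 (1.24 ± 0.17) was among the higher ones. Against close stroma, CDKN1A (-2.63 ± 0.35) and GADD45A (-1.22 ± 0.28) were lower in parenchyma, where 5.1% of all genes were lower. Adipocyte and endothelial markers ran in the same direction across regions as these inhibitors, and their part was not tested.

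Regulators upstream of the mitotic genes and subunits of the APC/C and of cohesin, the ring that holds sister chromatids together, were called higher and lower. Of 18 MuvB, E2F and DREAM genes 7 were higher in parenchyma than in far stroma and 2 lower, which is 38.9% and 11.1%, beside 26.1% and 24% of all genes. With library-total scaling 12 were higher and 0 lower, where 43.3% of all genes were higher. MYBL1, a relative of B-MYB (2.67 ± 0.47), the pocket protein RBL1 (1.63 ± 0.36), E2F2 (1.76 ± 0.39) and E2F1 (1.22 ± 0.31), which drive entry into S phase, were higher, while LIN52 of MuvB (-0.82 ± 0.17) and the histone chaperone RBBP4 (-0.41 ± 0.14) were lower. B-MYB itself (MYBL2) overlapped between these regions. It had 170, 160, 117 and 84.2 normalised counts in parenchyma and 90.0, 152, 44.0 and 108 in far stroma. Of 19 APC/C and cohesin genes, ANAPC1 was higher (0.64 ± 0.18), 4 were lower and 14 did not pass. The 21.1% lower is near the 24% of all genes and the 5.26% higher is below the 26.1%, so that the lower calls do not set these genes apart. The 4 were the small APC/C subunits ANAPC16 (-0.92 ± 0.19), ANAPC13 (-1.10 ± 0.27), CDC26 (-0.68 ± 0.20) and ANAPC15 (-0.59 ± 0.22). This balance turned to 9 higher and 2 lower with library-total scaling (43.3% and 14.4% of all genes), under which the median log2 difference of all genes was 0.48 in place of 0.06. Under that scaling 36 of the 41 mitotic genes were higher in parenchyma and 0 lower.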

How the data were processed

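Messenger RNA was sequenced after poly A selection from 11 samples of mammary tissue. Per the submitters' processing notes, cutadapt, STAR, HTSeq and DESeq2 were used, on build ARS-UCD1.2. Versions are not given in the sources used here. Strand use and filters are not given in the sources used here, so overlapping or antisense genes cannot be told apart.

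The deposited signal is a normalised count per gene, per the file headers. The smallest step in each column gave the worth of a single read, and 100% of values were whole reads to within 0.01, so that read numbers could be recovered. Precision is limited by few reads in low genes.

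Genes with a highest region mean of at least 10 (14596 genes, all 41 mitotic genes included) were tested as log2(value + 1) with limma 3.58.1 in R 4.3.3, with a variance trend and 3 regions in 1 fit, without a heifer term. The code was checked on simulated data. Alternatives were a heifer block, pseudocounts of 0.5 and 5, other filters, library-total scaling, edgeR 4.0.16 (TMM and RLE), DESeq2 1.42.0, fewer samples and each sample left out. Heifer numbers name animals and so pair samples: deviations from region means correlated at 0.1175 to 0.3825 in 10 pairs of samples of the same heifer and at -0.349 to 0.224 in 30 pairs of different heifers.

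The mitotic genes and other lists were chosen with earlier results of these data known. Named genes are all mitotic genes, with values per sample for the members of each role with the smallest and largest p against far stroma, for 8 fixed genes and for those that did not pass. Of each other cell cycle list up to 4 called genes per direction with the smallest p are named, and of marker lists the first genes. MELK, and CDCA5 in its comparison, follow from the rule on differing calls. CSN2 and MYBL2 are named outside these rules. A called gene of the inhibitor list is counted but not reported by name here. Gene lengths of the build were not used, so levels are not compared between genes.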

Additional observations from a re-analysis of the deposited data

Results flagged for a closer look

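Among 82 sets of 4 samples (41 mitotic genes in parenchyma and in far stroma), 2 held a sample far from the others by Dixon's test at the 95% level, which flags about 1 in 20 sets by chance. CDC20 was at 30.01 normalised counts in the far stroma of heifer 3, against 8.06 to 10.77 in the other far stroma samples. KIF2C was at 7.20 in the same sample, against 1.13 to 1.96 in the others, on 6 reads.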

How the results depend on the processing

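Over the alternatives tried, 0 of the 41 mitotic genes changed direction in a call. The count of genes higher in parenchyma than in far stroma ran from 27 to 36. The 36 came with library-total scaling, where 43.3% of all genes were higher. A filter at 30, which tested fewer of them, also gave 27, beside 26.0% of all genes. The count was 35 with the heifer as replicate block (28.1% of all genes), 33 by edgeR (25.6% with TMM and 25.5% with RLE) and 34 by DESeq2 (27.0%). Leaving out each sample gave 27 to 33, with 27 without the parenchyma of heifer 1 or of heifer 3. In those fits 22.3% to 26.6% of all genes were higher.

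Counts against close stroma were less stable. For parenchyma against close stroma, 3 became 8 with the replicate block, 18 by DESeq2 and 5 with only the regions compared. Leaving out each sample gave 1 to 3, where 0.362% to 2.63% of all genes were higher. For close against far stroma, 3 became 13 with the replicate block, 8 with heifers 3, 4 and 5 and the block and 6 with library-total scaling. Leaving out each sample gave 1 to 5, where 6.97% to 13.3% of all genes were higher. The cause was not tested.

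Over the 5 other cell cycle lists together (64, 33, 14, 18 and 19 genes tested), 51 genes were higher and 19 lower in parenchyma against far stroma. All genes were 26.1% higher and 24% lower. With library-total scaling the counts became 86 and 8, beside 43.3% and 14.4% of all genes. Leaving out each sample gave 39 to 53 higher and 13 to 19 lower, beside 22.3% to 26.6% and 20.8% to 24.2% of all genes. Against close stroma, 7 higher became 22 by DESeq2 and 13 with only the regions compared, beside 2.02%, 5.8% and 4.33% of all genes. The 2 lower became 4 with the replicate block and 4 by DESeq2, beside 5.1%, 6.53% and 8.35% of all genes. Leaving out each sample gave 0 to 9 higher and 1 to 5 lower, beside 0.362% to 2.63% and 2.23% to 6.24% of all genes. The 0 came without the close stroma of heifer 3 or of heifer 5. In close against far stroma, 7 higher became 13 with the replicate block and 15 with heifers 3, 4 and 5 and the block. It became 19 with library-total scaling and 4 with only the regions compared. The shares of all genes higher were 11%, 12.5%, 13.1%, 19.1% and 7.95% in turn. In that comparison 2 lower became 0 with library-total scaling, 6 by DESeq2 and 0 with only the regions compared. The shares of all genes lower were 5.99%, 2.08%, 8.82% and 2.78% in turn. Leaving out each sample gave 2 to 10 higher and 0 to 8 lower, beside 6.97% to 13.3% and 1.2% to 11.6% of all genes. The block changed no other count by over 1.5 times.

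Scaling set the balance over all genes. Of called genes, 52.1% were higher in parenchyma than in far stroma and 64.6% higher in close than in far stroma, against 75% and 90.2% with library-total scaling. Depth limits the low genes most, such as TTK with 7, 5, 1 and 0 reads in far stroma.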

Other observations

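The order of heifers seen in parenchyma, with heifers 1 and 3 both above heifers 4 and 5, also held in 37 of 64 tested mitotic genes outside the 41, among them GTSE1, KNL1, HJURP and NEK2, which were picked after their values were seen. It held in 8 of 33 genes of G1/S and DNA synthesis, in 6 of 18 MuvB, E2F and DREAM genes, in 3 of 19 APC/C and cohesin genes and in 2 of 14 inhibitors, where 18.3% of all genes showed it. The opposite order, with heifers 4 and 5 both above heifers 1 and 3, was seen in 0 of the 41 mitotic genes, 5 of 64 other mitotic genes and 5 of 33 G1/S genes. In both parenchyma and far stroma, heifers 1 and 3 lay above heifers 4 and 5 in 25 of the 41 mitotic genes and in 17 of the 64 others. Over all genes, the order in both regions can hold in at most the 18.3% that had it in parenchyma, but its share was not counted. The share of all genes with the opposite order was not counted either. These are orders of 4 animals per region, given without a test.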
